A study of Mus musculus with 16 samples.

Results

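The Reg (regenerating) family of mouse C-type lectins comprised 7 members here, Reg1, Reg2, Reg3a, Reg3b, Reg3d, Reg3g and Reg4, chosen by gene name from the 45513 genes counted. They were followed in 16 RNA-seq libraries from the small intestine of 8 mice, each of which gave 1 library of tdTom+ and 1 of tdTom- live cells, both sorted as EpCAM+ epithelium. All mice carried Atoh1(WT)CreERT2 and R26RtdTom, so both fractions came from the same genotype, and all received 1 mg of tamoxifen a day for 3 days. The CreERT2 cassette lies downstream of the Atoh1 coding sequence, and Atoh1 is the transcription factor of the intestinal secretory lineage, so the tdTom+ fraction holds cells that expressed Atoh1 when tamoxifen acted, together with their progeny, while the tdTom- fraction holds the epithelial cells without the label. Per the study's methods the mice were adult males and females on a C57BL/6 background, and the age and sex of each animal are not given in the sources used here.

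Reg proteins are small secreted lectins. Reg3b and Reg3g kill or bind bacteria at the intestinal surface, and their transcription in epithelial cells is known to rise with microbial colonization, through MyD88 signaling, and with interleukin-22, through STAT3. Reg1 was first known from regenerating pancreatic islets, Reg2 is mainly a pancreatic gene, and Reg4 marks enteroendocrine and deep crypt secretory cells of the gut.

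Library totals ran from 17116405 to 25323567 assigned counts, and 3 counts in a library correspond to 0.118 to 0.175 CPM (counts scaled to a library size of 1e6). Markers of the sorted populations separated the fractions in the direction of the labels: 8 of 8 goblet, 8 of 8 Paneth and 8 of 8 enteroendocrine markers were higher in tdTom+ cells, and 8 of 8 absorptive enterocyte markers were lower. Also higher in tdTom+ cells were 6 of the 6 tuft cell markers that passed the low count filter. Of 8 stem cell markers 4 were higher and 0 lower. The tdTom- library of mouse 7 stood apart, with a summed absorptive level of 14550 CPM against 24823 to 38346 CPM in the other tdTom- libraries and a summed stem cell level of 2809 CPM against 1118 to 1757 CPM. The tdTom- libraries of mice 7 and 8 also held most intraepithelial immune RNA, at 132 and 143 CPM summed over 8 markers against 10.2 to 38.1 CPM in the other 6. Of 8 pancreatic acinar markers, Cpa1, Cpb1, Cela2a and Cela3b were at 0 counts in every library, and none passed the low count filter.

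Neighbours on chromosome 6 and a distant gene made up the family in the GRCm38 annotation used for the counts. Reg3b (ENSMUSG00000071356, 78370885 to 78373466, plus strand), Reg3d (ENSMUSG00000068341, 78375874 to 78378865, minus strand), Reg3a (ENSMUSG00000079516, 78380709 to 78383839, plus strand), Reg2 (ENSMUSG00000023140, 78405155 to 78408097, plus strand), Reg1 (ENSMUSG00000059654, 78425983 to 78428666, plus strand) and Reg3g (ENSMUSG00000030017, 78466269 to 78468872, minus strand) lie within 97.99 kb of chromosome 6. Reg4 (ENSMUSG00000027876) lies on the plus strand of chromosome 3, from 98222156 to 98236748. Members of the chromosome 6 cluster are related in sequence, with 75.1% identity between the coding transcripts of Reg3a and Reg3b and 74.4% between those of Reg3b and Reg3g, whereas the transcript of Reg4 aligned to those of the others over at most 11 bases, so no identity is given for it. Of the 50-base words of any member, 0 occurred in a transcript of another gene, which bears on the 50-base reads that were counted.

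The 250 bases upstream of the annotated start are shown for the members whose levels the results turn on, Reg3b and Reg3g as the close pair that changed by different amounts, Reg1 as the neighbour of another subgroup and Reg4 as the member that moved the other way. The sequences are from RefSeq on GRCm38.p6, which held all 7 members, and read 5′ to 3′ on the strand of the gene, at chr6:78370635-78370884 (Reg3b, plus), chr6:78468875-78469124 (Reg3g, minus), chr6:78425733-78425982 (Reg1, plus) and chr3:98221906-98222155 (Reg4, plus). Capitals mark matches, on either strand, to the TATA box TATAAA and to TTCNNNGAA, the spaced palindrome that STAT factors bind.
Reg3b: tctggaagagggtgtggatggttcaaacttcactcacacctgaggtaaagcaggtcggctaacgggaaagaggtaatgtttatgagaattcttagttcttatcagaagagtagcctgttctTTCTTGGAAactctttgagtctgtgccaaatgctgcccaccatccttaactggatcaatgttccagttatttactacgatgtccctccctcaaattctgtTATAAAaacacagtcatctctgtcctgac
Reg3g: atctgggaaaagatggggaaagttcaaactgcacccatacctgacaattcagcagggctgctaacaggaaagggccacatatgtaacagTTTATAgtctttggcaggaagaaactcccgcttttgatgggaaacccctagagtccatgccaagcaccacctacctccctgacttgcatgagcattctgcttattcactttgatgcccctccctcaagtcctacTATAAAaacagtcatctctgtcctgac
Reg1: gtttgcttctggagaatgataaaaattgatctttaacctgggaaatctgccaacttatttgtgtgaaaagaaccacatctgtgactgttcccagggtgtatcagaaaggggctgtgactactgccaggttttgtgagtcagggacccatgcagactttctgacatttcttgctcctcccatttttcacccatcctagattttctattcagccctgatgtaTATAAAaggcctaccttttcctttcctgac
Reg4: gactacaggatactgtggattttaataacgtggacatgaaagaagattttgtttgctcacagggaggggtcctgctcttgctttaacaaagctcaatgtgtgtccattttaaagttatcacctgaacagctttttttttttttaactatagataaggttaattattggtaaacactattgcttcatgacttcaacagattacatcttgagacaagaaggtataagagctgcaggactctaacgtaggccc

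TATAAA on the strand of the gene began 29 bases before the start in Reg3b, 27 in Reg3g, 30 in Reg1 and 30 in Reg2, and was not found in the windows of Reg3a, Reg3d and Reg4. Reg3g held a further match on the opposite strand. Over all 32851 promoter windows of this length, 12.4% held TATAAA on either strand. TTCNNNGAA was present in Reg3b, 129 to 121 bases before the start, and in Reg3d, 238 to 230 bases before it, against 7.02% of all windows. Aligned to each other, the Reg3b and Reg3g windows shared 173 of 247 bases (70.0%). The E-box CAGCTG was in none of the 7 windows and in 13.0% of all, and the GATA motif AGATAA was in Reg4 only, 101 bases before the start, against 9.99% of all. The motifs did not overlap one another, and a match of letters describes the window and not a bound site.

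Of the 7 members, 5 passed the filter on low counts, and in a paired comparison 4 of them were lower and 1 was higher in tdTom+ than in tdTom- cells (edgeR quasi-likelihood F-test with the mouse as block, adjusted p under 0.01). Among all 15323 genes tested, 30.0% were called lower and 25.8% higher by the same rule, 55.8% in all, and without the mouse as block 49.6%. Every one of the 5 moved in the same direction in 8 of 8 mice, as did 50.3% of all genes tested. A level in these bulk libraries joins the number of expressing cells and the RNA of each, and fewer cells of a type and less RNA per cell cannot be told apart.

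**Figure D1:**
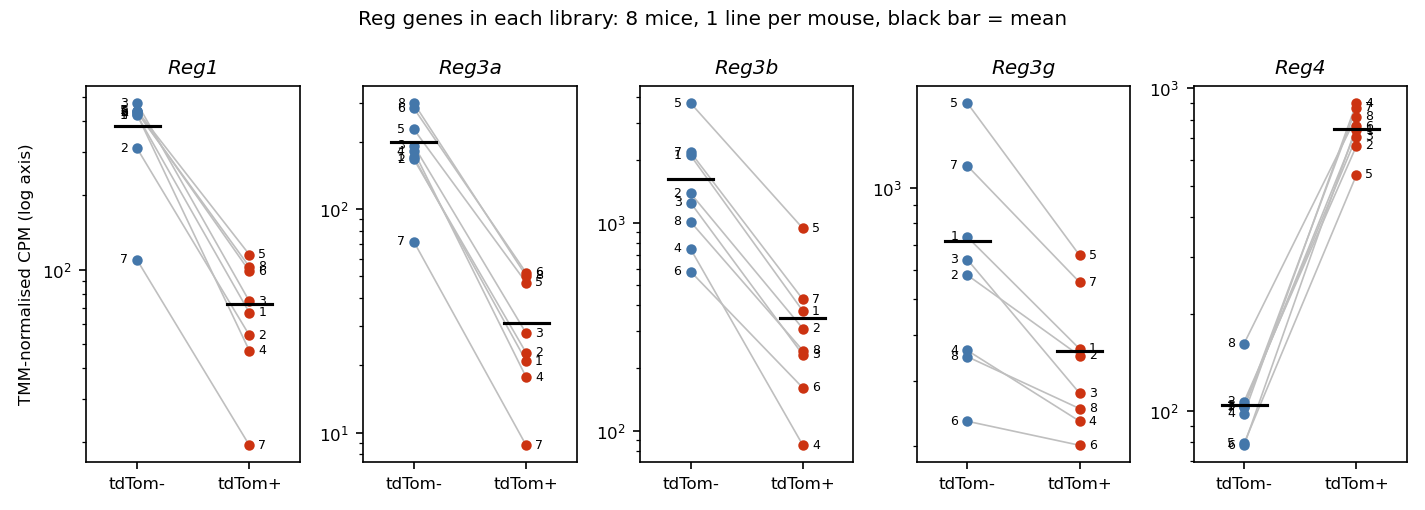
TMM-normalised CPM (log axis, a separate range for each gene) of the 5 Reg genes that passed the filter, in the tdTom- (blue) and tdTom+ (red) library of each of 8 mice, with a line joining the libraries of 1 mouse, mouse numbers beside the points and the mean as a black bar. Lines fall for Reg1, Reg3a, Reg3b and Reg3g and rise for Reg4 in all 8 mice.

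Reg3b, an antibacterial lectin, was the most abundant member of the tdTom- fraction. Its level in tdTom- libraries ran from 582 to 3754.5 CPM with a median of 1315 CPM, and in tdTom+ libraries from 85.1 to 938 CPM with a median of 276 CPM. The groups overlapped, because the tdTom+ library of mouse 5 exceeded the tdTom- libraries of mice 4 and 6, yet within each mouse the tdTom+ library was the lower one. The paired log2 fold change was -2.31 ± 0.12 (SE, n = 8 mice, edgeR adjusted p = 1.3e-09), and tdTom+ cells retained 11.4% to 27.6% of the tdTom- level of the same mouse.

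Reg3g, the bactericidal lectin that acts on Gram-positive bacteria, differed least between the fractions. It ran from 233 to 1695 CPM with a median of 609 CPM in tdTom- libraries, and from 200.3 to 655 CPM with a median of 314 CPM in tdTom+ libraries. The groups overlapped widely, with mouse 6 lowest and mouse 5 highest in both fractions. Within mice the log2 difference ranged from -1.37 to -0.22, and tdTom+ cells held a median of 55.1% of the tdTom- level (38.6% to 86.1%). The paired log2 fold change was -0.84 ± 0.11 (SE, n = 8 mice, edgeR adjusted p = 2.14e-05). Without the mouse as block the fold change was -0.99 and the adjusted p of 0.0247 (edgeR) missed the threshold of 0.01.

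Reg3a, another lectin gene of the same subgroup and cluster, had the largest decrease among the 4. Its level was 71.6 to 299 CPM in tdTom- libraries, with a median of 187 CPM, and 8.77 to 51.9 CPM in tdTom+ libraries, with a median of 25.3 CPM. The groups did not overlap, a separation that 17.0% of all genes tested showed in this direction and 31.6% in either. The log2 fold change was -2.79 ± 0.11 (SE, n = 8 mice, edgeR adjusted p = 5.91e-11).

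Reg3d was close to the limit of detection and did not pass the filter. The tdTom- libraries of mice 1 to 8 held 9, 8, 26, 14, 29, 26, 8 and 37 counts, and the tdTom+ libraries 0, 0, 1, 4, 5, 5, 1 and 3 counts. Every tdTom- library thus held more counts than any tdTom+ library, by 8 against 5 counts at the closest. Such a separation in this direction was seen in 17.0% of the genes that passed the filter, and for Reg3d it also held in CPM. With no filter on low counts, edgeR gave a log2 fold change of -3.03 (adjusted p = 2.46e-08, n = 8 mice), under which 18.5% of 27852 genes were called lower. Its sums of 157 and 19 counts make it a minor transcript beside its neighbours, whose sums over the tdTom- libraries were 272359 for Reg3b and 33435 for Reg3a.

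Reg1, the gene first described in regenerating islets, followed Reg3a and Reg3b. It ran from 109.55 to 473 CPM in tdTom- libraries, with a median of 429.7 CPM, and from 19.4 to 115 CPM in tdTom+ libraries, with a median of 70.7 CPM. The groups overlapped through mouse 7 alone, which was lowest in both fractions; the other 7 tdTom- libraries held 310 CPM or more. The log2 fold change was -2.46 ± 0.12 (SE, n = 8 mice, edgeR adjusted p = 5.62e-10). Reg2, the neighbour most like Reg1 in sequence, had 1 count in the tdTom- library of mouse 6 and 0 in the other 15 libraries, so no difference was detectable at this depth.

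Reg4 was the only member higher in tdTom+ cells. It ran from 78.3 to 162 CPM in tdTom- libraries, with a median of 103 CPM, and from 539 to 900.4 CPM in tdTom+ libraries, with a median of 752 CPM. The groups did not overlap, as for 14.6% of genes tested in this direction. The spread between mice was narrower than for the other members that passed the filter. The log2 fold change was 2.86 ± 0.10 (SE, n = 8 mice, edgeR adjusted p = 2.7e-11).

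**Figure D2:**
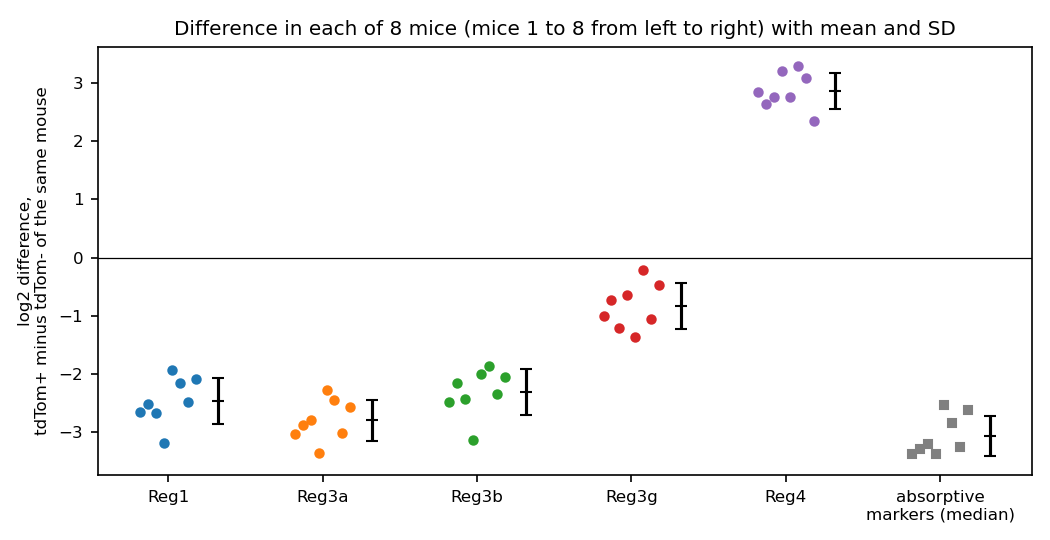
Log2 difference between the tdTom+ and the tdTom- library of the same mouse for 5 Reg genes and, in grey, for the median of 8 absorptive enterocyte markers. Points are mice 1 to 8 from left to right, and bars show the mean and SD over 8 mice; Reg3g sits between -1.37 and -0.22, apart from the range of -3.35 to -1.86 of Reg1, Reg3a and Reg3b.

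Because 2 genes of the same library share its depth and scaling, the log2 ratio of a pair of members compares their changes free of the normalization. Over 8 mice all 10 pairs of members differed in their change by an exact sign-flip test (2-sided over all sign patterns of the mice, smallest possible p = 0.00781), with adjusted p = 0.00868 for 9 pairs. For the pairs that include Reg4 this outcome was fixed by the opposite directions already given. The test therefore adds information only for the pairs among the other members. From tdTom- to tdTom+ cells the log2 ratio of Reg3b to Reg3g moved by -1.47 ± 0.52 (SD, n = 8 mice, exact sign-flip test), that of Reg3a to Reg3b by -0.48 ± 0.18 and that of Reg1 to Reg3a by 0.33 ± 0.14, so Reg3a fell most and Reg3g least. The smallest difference was between Reg1 and Reg3b, where the log2 ratio of Reg1 to Reg3b differed by -0.15 and in the same direction in 7 of 8 mice (exact sign-flip test, adjusted p = 0.0312). That call was lost, at adjusted p = 0.0625, without mouse 1, 2, 3, 6 or 7.

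The Reg3b to Reg3g ratio showed the divergence of this close pair directly. In tdTom- libraries there were 1.90 to 2.90 counts of Reg3b for each count of Reg3g, with a median of 2.30. In tdTom+ libraries there were 0.365 to 1.43, with a median of 0.860. No tdTom+ library reached the lowest tdTom- value.

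The make-up of the Reg transcripts therefore differed between the fractions. In tdTom- cells Reg3b supplied 50.5% ± 9.54 (SD, n = 8 mice) of the Reg counts, Reg3g 22.1% ± 5.79, Reg1 15.2% ± 8.17, Reg3a 8.14% ± 5.20 and Reg4 4.07% ± 1.80. In tdTom+ cells Reg4 supplied 50.5% ± 13.5, Reg3g 22.3% ± 5.16, Reg3b 20.4% ± 10.1, Reg1 4.78% ± 2.103 and Reg3a 2.06% ± 1.18. Reg3g thus took a like share of both pools while Reg3b and Reg4 traded the leading place. All 7 genes together made up 0.309% ± 0.151 of library counts in tdTom- cells and 0.153% ± 0.0416 in tdTom+ cells (SD, n = 8 mice).

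**Figure D3:**
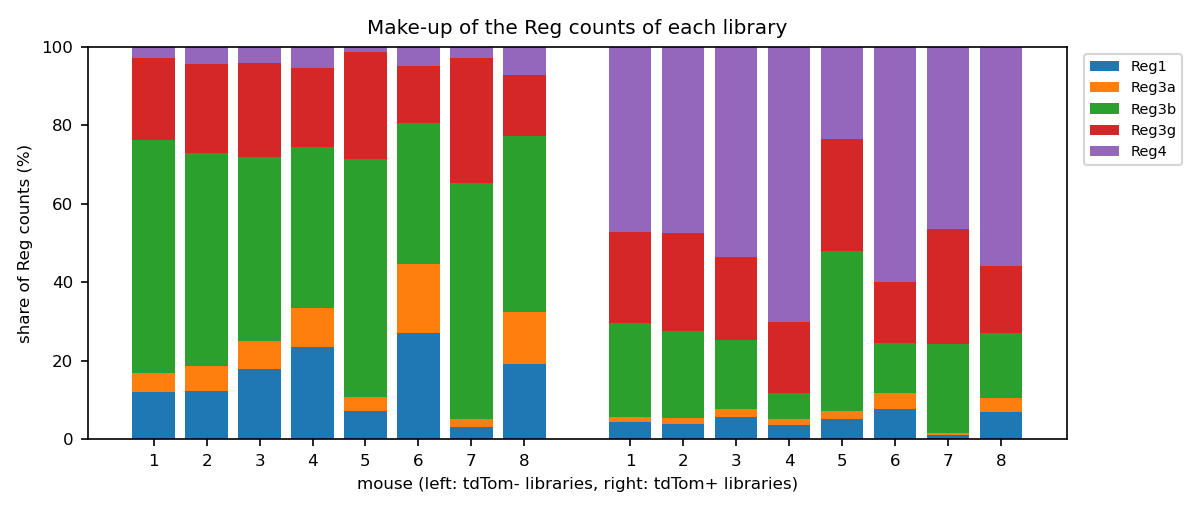
Share of the Reg counts of each library (percent, bars stacked from 0) held by Reg1, Reg3a, Reg3b, Reg3g and Reg4, with the 8 tdTom- libraries on the left and the 8 tdTom+ libraries on the right. Reg3b is the largest piece of all tdTom- bars, and Reg4 of all tdTom+ bars except that of mouse 5, where Reg3b holds 40.9%.

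Levels of different genes were compared as CPM per kb of transcript. Per kb of the coding transcript, the tdTom- order was Reg3b at 2076, Reg3g at 930.3, Reg1 at 497, Reg3a at 242 and Reg4 at 102. Reg3b stood above Reg3g, and Reg1 above Reg3a, in 8 of 8 mice, whereas Reg3g stood above Reg1 in only 5 of 8. In tdTom+ cells the order was Reg4 at 735, Reg3g at 468, Reg3b at 442, Reg1 at 94.0 and Reg3a at 37.4, and the neighbours Reg3g and Reg3b kept that order in 6 of 8 mice. The place of Reg3g depended on the length used: the annotation adds a retained-intron transcript that lengthens its exons from 771 to 2114 bases, and per kb of that length Reg3g was at 339 in tdTom- and 171 in tdTom+ cells.

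The spread between mice was wide for all members but Reg4. The SD of log2 CPM over 8 mice was 0.88 for Reg3b, 0.94 for Reg3g, 0.71 for Reg1 and 0.64 for Reg3a in tdTom- cells, against a median of 0.27 over all genes tested, and 92.9% to 98.3% of genes had a smaller SD. In tdTom+ cells it was 1.02 for Reg3b, 0.60 for Reg3g, 0.83 for Reg1 and 0.88 for Reg3a, against a median of 0.21, with 94.6% to 99.2% of genes below. Reg4, at 0.32 and 0.24, had 59.2% and 59.3% of all genes tested below it, and 74.0% and 77.7% of the 9416 genes with a mean of at least 10 CPM in either fraction, whose median SD was 0.21 and 0.16. Against those genes the other members had 97.2% to 99.6% below them. Between the lowest and the highest mouse, Reg3b differed 6.45-fold in tdTom- and 11.03-fold in tdTom+ cells, and Reg4 differed 2.07-fold and 1.67-fold.

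Mice that were high in one fraction were high in the other. Over 8 mice, Pearson's r between log2 CPM in the fractions of the same mouse was 0.967 for Reg3g (exact permutation p = 0.000149, adjusted over 5 members 0.000744), 0.945 for Reg3a (p = 0.000521, adjusted 0.0013) and 0.923 for Reg3b (p = 0.00156, adjusted 0.0026). Spearman's rho was 0.952 for Reg3g (exact permutation p = 0.00114), 0.881 for Reg3a (p = 0.00724) and 0.952 for Reg3b (p = 0.00114), with adjusted values of 0.00285, 0.0121 and 0.00285. Without the 2 mice farthest from the median, r was 0.927, 0.912 and 0.910 in the same order. Reg1 gave r = 0.877 (exact permutation p = 0.0218, adjusted 0.0272) and rho = 0.762 (p = 0.0368, adjusted 0.0459), but r was 0.251 without the farthest 2 mice and 0.484 without mouse 7 alone (adjusted p = 0.312, exact permutation), so that relation rested on few mice. Its call was also lost without mouse 2, at r = 0.876 (adjusted p = 0.0637, exact permutation). For Reg4, r was 0.407 (exact permutation p = 0.297) and rho -0.0714 (p = 0.882).

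**Figure D4:**
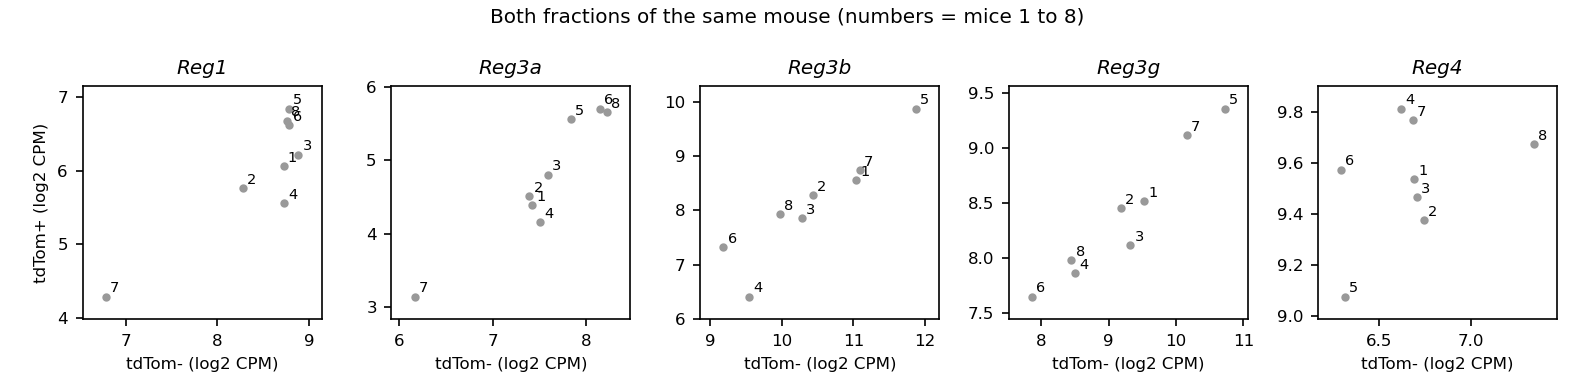
Log2 CPM in the tdTom- (x) and the tdTom+ library (y) of the same mouse for 5 Reg genes, with 1 point for each of mice 1 to 8 and separate ranges for each panel. Mouse 5 is highest for Reg3b and Reg3g and mouse 7 lowest for Reg1 and Reg3a in both fractions, and Reg4 shows no such ordering (r = 0.407).

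Some members varied over mice in pairs, Reg3b with Reg3g in both fractions and Reg1 with Reg3a in tdTom+ libraries, and no relation with Reg4 passed. Of 20 relations between members (10 pairs in each fraction), 3 passed an adjusted p of 0.05. Reg3b and Reg3g varied together, with r = 0.969 in tdTom- libraries (exact permutation p = 0.000347, adjusted 0.00496) and 0.890 in tdTom+ libraries (p = 0.00154, adjusted 0.0103), rho being 0.952 in both (p = 0.00114, adjusted 0.0114). Without the 2 farthest mice r was 0.908 and 0.952, and without mouse 5 the tdTom+ relation gave r = 0.802 and an adjusted p of 0.0952 (exact permutation). Reg1 and Reg3a varied together in tdTom+ libraries, at r = 0.963 (exact permutation p = 0.000496, adjusted 0.00496) and rho = 0.881 (p = 0.00724, adjusted 0.0483), and r was 0.945 without the 2 farthest mice. In tdTom- libraries the same pair gave r = 0.893 and rho = 0.762 (exact permutation, adjusted p = 0.0817 and 0.184), and r was 0.0479 without 2 mice.

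Across these pairs no relation passed. Reg1 against Reg3b gave r = -0.302 in tdTom- and 0.0822 in tdTom+ libraries (exact permutation, adjusted p = 0.72 and 0.921), and Reg3a against Reg3g gave -0.524 and -0.327 (adjusted p = 0.504 and 0.716). Mouse 7 shows the split most plainly: it had the lowest Reg1 (109.55 and 19.4 CPM) and Reg3a (71.6 and 8.77 CPM) of all mice in tdTom- and tdTom+ cells, and the second highest Reg3b (2179 and 427 CPM) and Reg3g (1146 and 554 CPM). That mouse also had the lowest summed absorptive marker level in both fractions, 14550 and 1563 CPM, and the part of this in the Reg1 and Reg3a values was not tested.

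**Figure D5:**
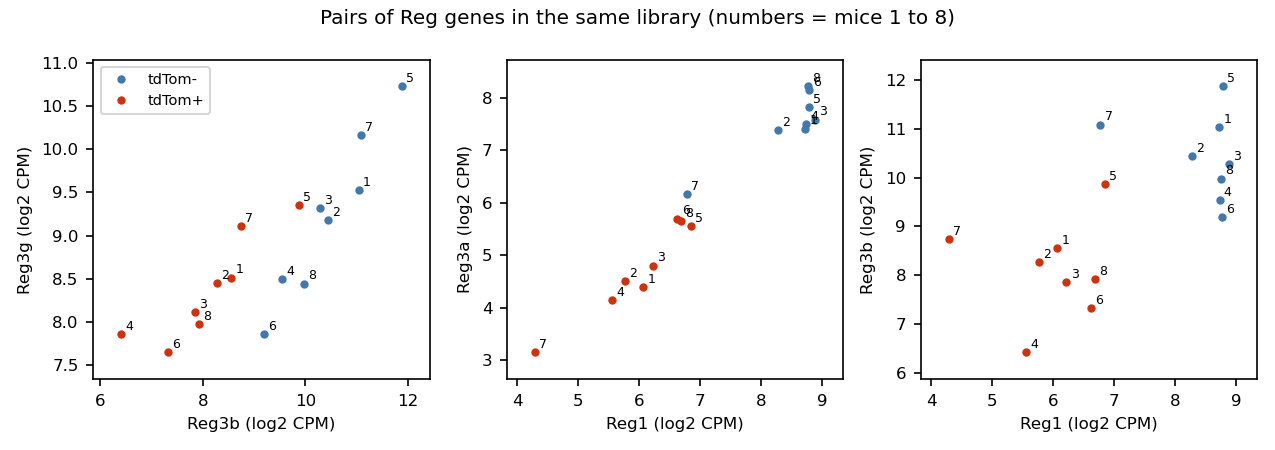
Log2 CPM of pairs of Reg genes in the same library, with tdTom- in blue, tdTom+ in red and mouse numbers beside the points. Reg3b and Reg3g rise together within each fraction along separate lines (r = 0.969 and 0.890), Reg1 and Reg3a do so in tdTom+ libraries (r = 0.963), and Reg1 against Reg3b shows no such line.

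Absorptive markers gave a scale for what the tdTom+ fraction retained of tdTom- transcripts. Over 8 absorptive markers and 8 mice the tdTom+ level was 6.27% to 26.9% of the tdTom- level, with a median of 12.4%. Reg3a, at a median of 14.02%, stayed within the range of the markers in 8 of 8 mice. Reg1, at a median of 17.6%, was above every marker in 4 of 8 mice, and Reg3b, at 21.0%, in 5 of 8. Reg3g was above every marker in 8 of 8 mice, and all 4 lay above the median of the markers of the same mouse in 8 of 8.

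Seen from the other side, the tdTom- libraries held Reg4 at 10.3% to 19.8% of the level of the tdTom+ library of the same mouse. Goblet markers in tdTom- libraries were at 0.301% to 1.60% of their tdTom+ level and Paneth markers at 0.257% to 0.904%, and Reg4 was above every one of these 16 markers in 8 of 8 mice. Enteroendocrine markers, at 3.11% to 76.5% with a median of 30.8%, and tuft markers, at 5.17% to 120% with a median of 27.6%, spanned the Reg4 range. By their medians the order from lowest to highest was Paneth and goblet, then Reg4, then tuft and enteroendocrine markers.

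The genes whose profile over the 16 libraries was nearest to each member were sought among 9411 other genes with a mean of at least 10 CPM in either fraction, by the root mean square difference of centred log2 CPM. Reg3a had the closest neighbours: Aldh1a1, a retinaldehyde dehydrogenase, at 0.12, Aldh1a7 at 0.19 and Gstm3, a glutathione transferase, at 0.20. Reg1 was nearest to the carboxylesterase Ces2b at 0.26, the retinol dehydrogenase Rdh7 at 0.26 and Ces2c at 0.28, and its distance to Reg3a was 0.31. Reg4 was nearest to Serpinf2, which encodes a plasmin inhibitor, at 0.19, Asph at 0.21 and Smim3 at 0.23.

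The antibacterial pair had no such near neighbours. Reg3b was nearest to the epithelial tyrosine kinase gene Ptk6 at 0.56, Apol10b at 0.65 and Smpdl3b at 0.69. Reg3g was nearest to the interferon-induced GTPase gene Ifi47 at 0.46, Alpk1, a kinase gene for sensing of bacterial sugars, at 0.47 and the interferon-induced Isg15 at 0.48. Reg3b and Reg3g lay 0.84 apart, a distance that includes their unequal change between the fractions.

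Genes of the signaling linked to Reg3 transcription did not move in 1 direction. The 16 genes listed, of interleukin-22, interleukin-6 type, interleukin-17, Toll-like receptor and Nod2 signaling, all passed the filter. In tdTom+ cells 2 were higher and 6 lower, and the median log2 fold change was -0.11 against 0.02 over all genes tested. The count was 4 higher and 4 lower when only genes with 10 or more counts in all libraries were tested, and 2 and 4 without mouse 3. By the rule of the paired comparison, 25.8% of all genes tested were higher and 30.0% lower. Those shares also stand beside the list counts in the paragraphs that follow. Il22ra1, the epithelial subunit of the interleukin-22 receptor, averaged 44.9 ± 12.6 CPM in the tdTom- fraction and 43.0 ± 5.12 CPM in the tdTom+ one (SD over 8 mice), a log2 fold change of -0.03 (edgeR adjusted p = 0.887). Stat3 had a log2 fold change of -0.17 (edgeR adjusted p = 0.149). Also on the list, Jak1 did not pass (0.11, edgeR adjusted p = 0.134), whereas Il10rb and Tyk2 were lower in 8 of 8 mice. Their log2 fold changes were -0.305 and -0.32 (edgeR adjusted p = 0.000365 and 0.000558). Socs3 had a log2 fold change of -0.76 (edgeR adjusted p = 0.00123) and was lower in 7 of 8 mice. Myd88, the shared adaptor of Toll-like receptors, was lower by a log2 fold change of -0.35 ± 0.06 (SE, edgeR adjusted p = 0.000109) and in 8 of 8 mice. Among the others that passed the test in 8 of 8 mice, the adaptor gene Ticam1 changed by -0.89 on the log2 scale and the kinase genes Irak1 and Irak4 by 0.75 and -0.75.

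Extl3, an exostosin family gene whose product has been proposed as a receptor for Reg proteins, was higher in tdTom+ cells, at 26.9 ± 2.56 against 18.1 ± 1.65 CPM (SD, n = 8 mice), with a log2 fold change of 0.58 ± 0.05 (SE, edgeR adjusted p = 2.57e-07). Of the 5 exostosin genes, 2 were higher (Extl2 at 0.82 and Extl3), and 1 was lower (Ext1 at -0.93). With scaling by total counts 2 were lower, as at an adjusted p of 0.05, where 3 were higher.

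Other secreted antimicrobial genes moved opposite to the Reg3 genes. Of 10 listed, 8 passed the filter and all 8 were higher in tdTom+ cells, with a median log2 fold change of 7.39. The largest were the Paneth cell genes Ang4 at 7.64 and Mptx2 at 7.63 and the goblet cell lectin gene Zg16 at 7.43, and Lypd8 had the smallest change at 1.35. Several of these are also on the goblet and Paneth marker lists. Reg4, at 2.86, lay below 6 of the 8 and above Lypd8 and Pglyrp1 (2.57), a gene named after its value was seen; these differences in size were not tested.

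Epithelial genes known to respond to microbes were divided. Of 9 listed, 5 passed the filter, with 2 higher (Fut2 at 1.91 and Duoxa2 at 0.76), 2 lower (Nos2 at -0.99 and Pigr at -0.98) and Duox2 at -0.01 (edgeR adjusted p = 0.934). Nos2 encodes inducible nitric oxide synthase and Pigr the carrier of secretory IgA, and the value of Reg3g beside them was -0.84. Without the mouse as block 1 gene of the list passed in each direction.

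Markers of villus zones were also mixed. Among genes known from the lower villus, Nlrp6 (-1.52) and Il18 (-2.17) were lower in tdTom+ cells and Lypd8 (1.35) was higher. Among 6 villus tip genes, Ada (-4.19), Slc28a2 (-3.98) and Nt5e (-1.30) were lower, Klf4 (1.40) and Egfr (1.24) were higher, and Enpp3 did not pass (-0.35, edgeR adjusted p = 0.153). Ada and Slc28a2 serve the breakdown and the transport of nucleosides.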

How the data were processed

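Per the labels and the study's methods, the authors sequenced stranded mRNA libraries as 50-base single-end reads, aligned them with TopHat2 to GRCm38 and deposited raw counts for each gene. Per the file headers featureCounts 1.5.0-p1 summed exons by gene on the reverse strand, from primary alignments; the submitters' notes list Subread 1.5.2, so the version is not settled.

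The deposited counts were analysed with edgeR 4.0.16 in R 4.3.3: TMM scaling, filterByExpr, and a quasi-likelihood F-test with mouse as block over all 15323 genes that passed, Benjamini-Hochberg adjusted, threshold 0.01. Each mouse gave both fractions, so their shared number is a pairing by animal: same-mouse libraries deviated together (r = 0.245 to 0.634) and 8 of 8 matched best with their own mouse. The steps were tested on simulated data. Pairs of members were compared by an exact sign-flip test over 8 mice with a prior count of 2 and adjusted over 10 pairs, and relations over mice by exact permutation of 40320 pairings, both at a threshold of 0.05. Named genes were all 7 members, in each list up to 3 genes with the largest change among those past the threshold in 8 of 8 mice, Extl3, Il22ra1, Stat3 and Myd88, and the 3 genes of most similar profile to each member. Named beyond that rule are Nt5e, Egfr, Enpp3, Duox2, Duoxa2, Pglyrp1, Jak1, Il10rb, Tyk2, Socs3 and acinar markers. The members follow from their gene names, but the family and the lists were chosen with earlier results of these data known. Alternatives were no block, other scalings and filters, thinning, DESeq2 1.42.0, limma 3.58.1, a threshold of 0.05 and leaving out each mouse. Sequences were read with Biopython 1.88.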

Additional observations from a re-analysis of the deposited data

Results flagged for a closer look

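In 5 of 17 sets of 8 libraries examined (log2 CPM of 5 members and the Reg share in each fraction, and the within-mouse difference of 5 members), the lowest or highest mouse lay farther from the others than Dixon's 95% limit for 8 values allows. Chance picks out about 1 in 20 such sets, or 0.85 of 17. The sets are not independent, because members and fractions of the same mouse vary together, so this comparison cannot show an excess. Reg1 in tdTom- cells of mouse 7 was at 6.777 log2 CPM, against 8.277 to 8.886 in the other mice. Reg3a in tdTom- cells of mouse 7 was at 6.164 log2 CPM, against 7.389 to 8.223. Reg4 in tdTom- cells of mouse 8 was at 7.34 log2 CPM, against 6.292 to 6.742. The Reg share of library counts in mouse 5 was 0.6419% in tdTom- cells, against 0.1817% to 0.3612% in the others, and 0.2475% in tdTom+ cells, against 0.1209% to 0.1755%. The causes of these values were not tested.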

How the results depend on the processing

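All 5 fold changes of the members kept their direction under every alternative run (no block, other scalings, filters, tools and thinning, and each mouse left out), and only Reg3g lost its call, without the replicate block, at -0.99 (edgeR adjusted p = 0.0247); dropping the pairing changed no other member call. Leaving out 1 mouse gave ranges of -2.53 to -2.32 (Reg1), -2.86 to -2.68 (Reg3a), -2.37 to -2.18 (Reg3b), -0.92 to -0.68 (Reg3g) and 2.80 to 2.98 (Reg4), and 7911 to 8923 genes called. With the median over mice as its statistic, the sign-flip test cannot give a p below 0.0625 for 8 mice. No pair could therefore pass (adjusted p = 0.0625 for all 10), and this alternative cannot decide whether a call holds. The median differences kept the signs of the means: Reg1 against Reg3a 0.35, Reg3b -0.16, Reg3g -1.63 and Reg4 -5.43, Reg3a against Reg3b -0.53, Reg3g -2.06 and Reg4 -5.64, Reg3b against Reg3g -1.46 and Reg4 -5.17, and Reg3g against Reg4 -3.85. Without 1 mouse the Reg1 to Reg3b difference was -0.18 to -0.12, and the Reg1 relation between fractions was 0.484 to 0.945. Without the 10 most counted genes in the total, the Reg share of tdTom+ counts was 0.198% and that of tdTom- counts 0.348%. Relations between members that changed sign when 1 mouse was left out, none past the threshold, ranged in tdTom- from -0.337 to 0.052 (Reg1, Reg4), -0.603 to 0.310 (Reg3a, Reg4), -0.575 to 0.229 (Reg3b, Reg4) and -0.706 to 0.0902 (Reg3g, Reg4), and in tdTom+ from -0.307 to 0.542 (Reg1, Reg3b), -0.801 to 0.264 (Reg1, Reg3g), -0.315 to 0.339 (Reg3a, Reg3b), -0.812 to 0.0504 (Reg3a, Reg3g) and -0.865 to 0.0282 (Reg3g, Reg4). Genes called numbered 7606 without the block, 9242 with DESeq2 and 9499 with no filter. With at least 10 counts in every sample the split was 4448 higher and 3356 lower, with the median log2 fold change moved to 0.12, and without mouse 3 it was 4529 and 3626 with a like median of 0.12. Immune markers called lower in tdTom+ cells were 6 of 7 tested in the main fit, 3 of 4 tested with that filter and 2 of 7 tested without mouse 8. Reg2 and, in tdTom+ cells, Reg3d lie at the limit of detection.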

Other observations

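Some other genes that respond to microbes or interferon were high in the same mice as Reg3b and Reg3g, and others only in part. Mice 5 and 7, which had the highest Reg3g in both fractions, also had the highest Nos2, at 36.3 and 28.7 CPM in tdTom- cells against 4.02 to 8.87 CPM in the other 6 mice. Duox2, an NADPH oxidase gene, was highest in mouse 7 (99.8 CPM) and then mouse 5 (52.5 CPM) in tdTom- cells and lowest in mouse 6 (11.8 CPM), the mouse with the lowest Reg3g. In tdTom+ cells Duox2 kept the same highest and lowest mice, at 85.3, 51.2 and 20.2 CPM. Ifi47 and Duoxa2 were highest in mouse 7 and then mouse 5 in both fractions. Isg15 was highest in mouse 5 in both fractions (27.8 and 16.1 CPM) but not raised in mouse 7 (16.1 and 10.3 CPM). In tdTom- cells Socs3 and Pigr were highest in mouse 5 (68.5 and 6761 CPM). There Socs3 was lowest in mouse 7 (30.6 CPM), and Pigr of mouse 7 (5281 CPM) lay within the range of the others. In tdTom+ cells, however, mouse 7 was the highest for both Socs3 (40.1 CPM) and Pigr (3544 CPM). These genes were picked out after their values were seen, and no test was made.

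The acinar gene Ctrb1 was near the limit of detection but unequal between the fractions, with 9 to 32 counts in each tdTom+ library and 0 to 3 in each tdTom- library. With no filter on low counts it was called higher in tdTom+ cells (edgeR log2 fold change of 4.14, adjusted p = 1.43e-08), as it was with DESeq2. Reg2, the member otherwise known from the pancreas, was at 0 counts in all 8 tdTom+ libraries.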
